A study of Mus musculus with 18 samples.

Results

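The kidneys of mice on a ketogenic diet were compared with those of mice on chow across all genes, using the 6 kidney libraries of a series of 18 that also covers heart and liver. The libraries were chosen by the organ and diet in their titles: 3 from wild-type C57BL/6J mice fed a ketogenic diet and 3 from wild-type C57BL/6J mice fed standard chow. C57BL/6J is an inbred laboratory strain. Feeding began at 4 weeks of age and lasted 21 days, and the ketogenic diet held 90% fat, 9.7% protein and 0.3% carbohydrate, with no basis given for the percentages. The labels call the 3 libraries of a group biological replicates and give neither the sex of the mice nor the hour of collection. Since the series is titled for senescence through p53 on this diet, genes of that program are described with the others. RNA integrity numbers were above 4 per the labels, with no value for each library. Of 22609 genes listed, 14526 had enough counts to be tested in kidney.

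The kidney filters blood in the glomerulus and recovers most of the filtrate in the proximal tubule, a segment packed with mitochondria and peroxisomes that lives mainly on fatty acids. The loop of Henle, distal tubule and collecting duct then adjust salt, calcium, acid and water. When carbohydrate is scarce, fatty acids activate the nuclear receptor PPAR-alpha, which switches on genes of fat transport and oxidation. The mouse kidney also carries a large set of proximal tubule genes that respond to androgens, and a circadian clock that sets the daily rhythm of many transporters.

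Read depth was similar in the 6 libraries, with total estimated counts of 16173996 to 19923905. Levels are given as CPM, estimated counts scaled to the library total and TMM factors, always in the order ketogenic replicates 1, 2 and 3, then chow replicates 1, 2 and 3. A gene is said to have risen or fallen only where edgeR's quasi-likelihood test gave a Benjamini-Hochberg adjusted p under 0.05. The first principal component of log2 CPM held 52.2% of the variance and separated the diets. The second held 22.0%, with ketogenic replicate 1 at one end (37.3) and the other 5 libraries between -15.1 and 9.16. On the first component ketogenic replicate 1 stood at -16.6, between the chow libraries (23.0 to 33.0) and ketogenic replicates 2 and 3 (-32.0 and -34.5). It was also known beforehand to lie nearer chow for fatty acid genes. Results are therefore given with and without ketogenic replicate 1. Transcripts of the Y-linked genes Ddx3y, Eif2s3y, Kdm5d and Uty were present in every library, and Xist had 2 to 7 counts.

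Markers of the nephron segments showed all 6 libraries to be kidney, and their summed levels differed between libraries. In bulk tissue, fewer cells of a type, less RNA per cell and a change in single marker genes cannot be told apart. The summed level of the markers of proximal tubule segments S1 and S2 was 20530, 26050 and 27210 CPM on the ketogenic diet and 19430, 22050 and 18100 CPM on chow. The summed markers of the thick ascending limb were at 9061, 6616 and 6080 CPM on the ketogenic diet and 9036, 8290 and 9817 CPM on chow. Ketogenic replicates 2 and 3 thus had higher summed S1 and S2 markers and lower summed thick ascending limb markers than any chow library. Ketogenic replicate 1 lay within the chow range for both sums. The summed principal cell markers of the collecting duct were highest in ketogenic replicate 1 (1170 CPM) and chow 3 (1005 CPM), against 679.4 to 814.7 CPM elsewhere. Aqp4, a water channel of principal cells, was at 102, 24 and 15.2 CPM on the ketogenic diet and 27.6, 22.3 and 42.3 CPM on chow. Of 10 principal cell markers tested none passed with all libraries. Without ketogenic replicate 1, 4 of them fell and none rose, against 11.8% and 11.3% of all genes tested. The part that these marker differences play in the results below was not tested.

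**Figure D1:**
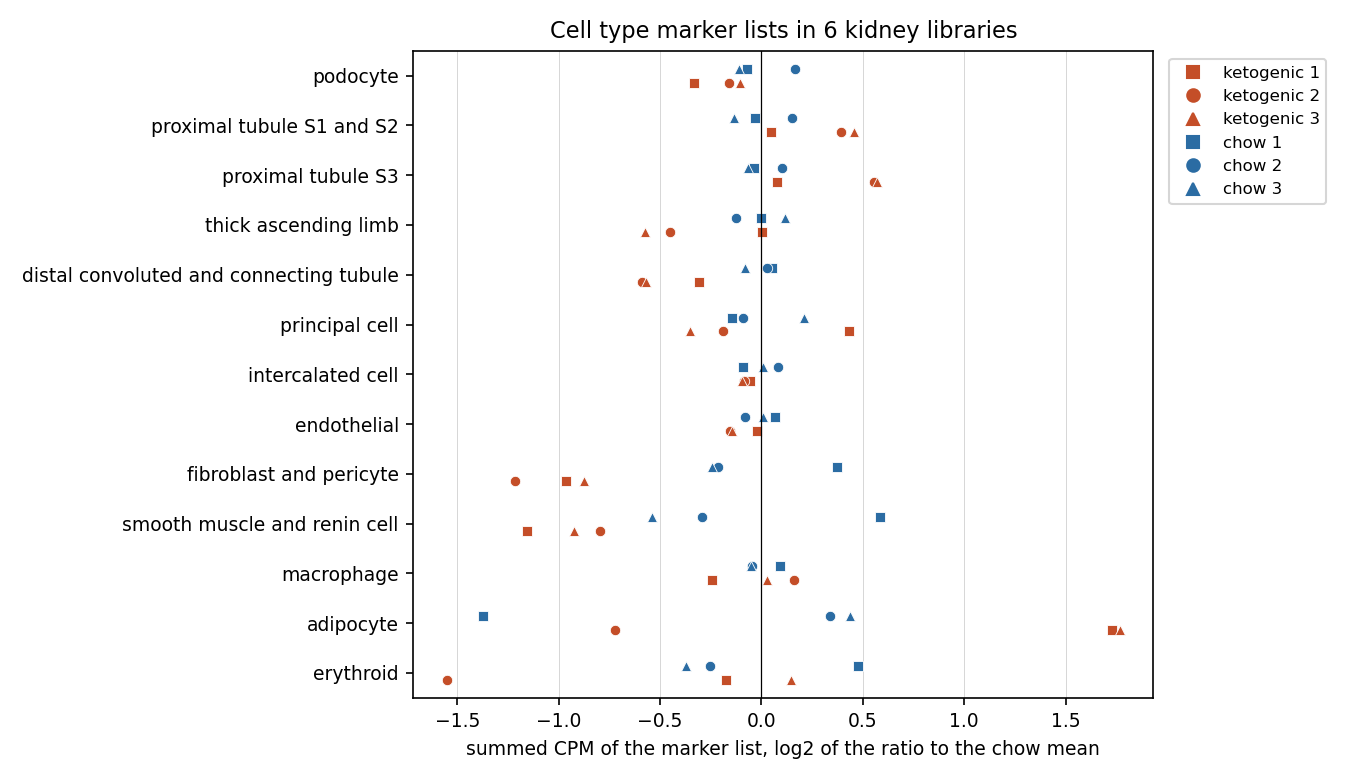
Summed CPM of each cell type marker list in each kidney library (x axis: log2 of the ratio to the mean of the 3 chow libraries; y axis: marker list; symbols: replicates; colours: diets). The fibroblast and distal convoluted tubule lists are lower in all 3 ketogenic libraries, while ketogenic replicate 1 stands with chow for the proximal tubule and thick ascending limb lists.

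Tissue lying outside the nephron also varied between libraries. Summed adipocyte markers ran from 79.7 CPM in chow 1 to 703 CPM in ketogenic replicate 3, and were at 125 CPM in ketogenic replicate 2. Erythroid markers ran from 267 to 1087 CPM. The adrenal enzymes Cyp11a1, Cyp11b1 and Cyp21a1 had 22, 15 and 23 counts in chow 1 and at most 3 counts in any other library. Smooth muscle and renin cell markers summed to 483 CPM in chow 1 and to 145 to 263 CPM in the rest. Of these 4 lists, adipocyte markers rose or fell in 0 of 11 tested, erythroid markers in 0 of 7, adrenal markers fell in 1 of 2 and smooth muscle and renin cell markers fell in 2 of 8. Over all genes tested 3.59% rose and 5.45% fell. The adrenal marker that fell, Akr1b7, is also on the smooth muscle and renin cell list. Its call was lost when any 1 library other than ketogenic 1 was left out.

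Across all genes, 1314 of 14526 passed (9.05%), of which 522 rose (3.59%) and 792 fell (5.45%). Without ketogenic replicate 1 the test called 3402 of 14717 genes (23.1%), of which 1669 rose (11.3%) and 1733 fell (11.8%). Of the 1314 genes, 1300 were also called without ketogenic replicate 1, all in the same direction, and 2102 more were called. The share of called genes that rose was 39.7% with all libraries, 49.1% without ketogenic replicate 1 and 25.3% with total-count scaling in place of TMM, which put the median log2 fold change of all genes at -0.087. Leaving out chow 1 gave the fewest calls (412). The count of each list below is to be read beside the shares of all genes that rose and fell.

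Genes of fatty acid oxidation were higher on the ketogenic diet, strongly in 2 of the 3 mice. Of 23 mitochondrial beta-oxidation genes tested, 9 rose and none fell (3.59% of all genes tested rose and 5.45% fell), with a median log2 fold change of 0.38 against 0.00 for all genes tested. Of 35 PPAR-alpha targets, 10 rose and none fell (median 0.56). Without ketogenic replicate 1, 14 beta-oxidation genes rose (median 0.54) and 24 PPAR-alpha targets rose (median 0.74), against 11.3% of all genes. That library was set apart with its fatty acid gene levels known, so higher values without it were fixed in advance and add no support. The 1 PPAR-alpha target that then fell was Fabp3, the heart-type fatty acid binding protein (-0.66 on the log2 scale, adjusted p = 0.000669). Cpt1a, the carnitine palmitoyltransferase at the gate of the mitochondrion, was at 611, 769 and 846 CPM on the ketogenic diet and 461, 505 and 503 CPM on chow (log2 fold change 0.60, SE 0.13, adjusted p = 0.024). Acads, the short-chain acyl-CoA dehydrogenase, was at 197, 241 and 270.1 against 148, 148 and 141 CPM (log2 fold change 0.70, SE 0.11, adjusted p = 0.00761). Angptl4, a secreted inhibitor of lipoprotein lipase and a PPAR target, was at 56, 69.5 and 84.7 against 31.6, 38.7 and 31.8 CPM (log2 fold change 1.04, SE 0.16, adjusted p = 0.00744). For all 3 genes the diets did not overlap, and ketogenic replicate 1 was the lowest of the ketogenic libraries.

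Among the same enzymes, Ech1, an auxiliary enzyme for unsaturated fatty acids, was at 392, 557 and 574 CPM on the ketogenic diet and 309, 315 and 315 CPM on chow (log2 fold change 0.70, adjusted p = 0.0191), and Eci2, an enoyl-CoA isomerase, was at 116, 142 and 136 against 92.3, 91.1 and 91.2 CPM (log2 fold change 0.52, adjusted p = 0.00862). Acad11, a dehydrogenase of very long acyl chains, was at 258, 355 and 343 against 187, 205 and 183 CPM (log2 fold change 0.73, adjusted p = 0.00943). The diets did not overlap for these genes either. Cyp4a10, a fatty acid omega-hydroxylase, was at 368, 699 and 676 against 252, 260 and 229 CPM (log2 fold change 1.23, adjusted p = 0.0216); it shares sequence with Cyp4a14, and reads that map to both were split, so its value is uncertain. Others did not pass: the medium-chain dehydrogenase Acadm was at 658, 971 and 939 against 962, 878 and 828 CPM (log2 fold change -0.06, adjusted p = 0.851), and the acyl-CoA synthetase Acsl1 was at 336, 324 and 352 against 333, 326 and 351 CPM (log2 fold change 0.00, adjusted p = 0.984). Pdk4, the kinase that shuts pyruvate out of the mitochondrion, was at 23.8, 43.3 and 44.5 against 27.4, 38 and 30.4 CPM (log2 fold change 0.22, adjusted p = 0.628). For Pdk4 the log2 fold change without ketogenic replicate 1 was 0.46 (adjusted p = 0.0219).

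The counts of these lists depended on single libraries. With chow 1 left out, 1 beta-oxidation gene and no PPAR-alpha target passed, and with ketogenic replicate 2 left out 3 and 1 passed. Acads passed with any 1 library left out. The call of Angptl4 was lost without chow 1 (adjusted p = 0.0524), that of Eci2 without chow 1 (adjusted p = 0.0504), and that of Acad11 without chow 1 or chow 3 (adjusted p = 0.0568 to 0.0622). The other calls were lost more widely: that of Ech1 when any 1 library other than ketogenic 1 was left out (adjusted p = 0.0587 to 0.0977), that of Cyp4a10 when any 1 library other than ketogenic 1 was left out (adjusted p = 0.0635 to 0.0977) and that of Cpt1a when any 1 library other than ketogenic 1 was left out (adjusted p = 0.0571 to 0.123).

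In peroxisomes, which shorten very long fatty acids and break down branched ones, 7 of 35 genes rose and 1 fell (median log2 fold change 0.22). With ketogenic replicate 1 left out, 21 rose and 2 fell. Acox3, an oxidase of branched acyl-CoA, was at 264, 382 and 436 CPM on the ketogenic diet and 174, 194 and 181 CPM on chow (log2 fold change 0.98, adjusted p = 0.0132). Pex11a, which drives peroxisome division, was at 21.1, 29.6 and 30.2 against 17.6, 17.7 and 16.6 CPM (log2 fold change 0.64, adjusted p = 0.0222), and Phyh, which starts the alpha-oxidation of phytanic acid, at 424, 620.2 and 598 against 342, 349 and 344 CPM (log2 fold change 0.67, adjusted p = 0.0223). The member that fell was Acox2, an oxidase of bile acid intermediates, at 116, 109 and 129 against 147, 170.5 and 151 CPM (log2 fold change -0.41, adjusted p = 0.0285). No chow library overlapped the ketogenic ones for these 4 genes. No member passed without ketogenic replicate 2, chow 1 or chow 3: the call of Acox3 was lost without ketogenic 2, chow 1 or chow 3 (adjusted p = 0.0521 to 0.0769), that of Pex11a when any 1 library other than ketogenic 1 was left out (adjusted p = 0.0628 to 0.099), that of Phyh when any 1 library other than ketogenic 1 was left out (adjusted p = 0.0627 to 0.107) and that of Acox2 without ketogenic 2, chow 1, chow 2 or chow 3 (adjusted p = 0.0742 to 0.113).

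Some genes were near the chow level in ketogenic replicate 1 and far from it in the other 2 ketogenic libraries. Pck1, the cytosolic PEPCK of gluconeogenesis, was at 990.3, 3960 and 4038 CPM on the ketogenic diet and 999, 890 and 851 CPM on chow (log2 fold change 1.71, adjusted p = 0.117). For Pck1 the log2 fold change without ketogenic replicate 1 was 2.13 (adjusted p = 1.27e-07). Ketogenic replicate 1 lay inside the chow range for Pck1.

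Other genes were chosen for the smallest adjusted p without ketogenic replicate 1, among those not called with all libraries. Such a choice favours genes in which ketogenic replicate 1 lies nearer chow than ketogenic replicates 2 and 3. Their shared order of samples therefore follows from the choice and is not a separate result. Ces2c, a carboxylesterase, was at 95.7, 235 and 234 CPM on the ketogenic diet and 62.1, 61.4 and 55.4 CPM on chow (adjusted p 0.0558 with all libraries and 2.34e-08 without ketogenic replicate 1). Slc25a25, a mitochondrial ATP-Mg/phosphate carrier, was at 39.6, 194 and 157 against 38.6, 43.2 and 39.1 CPM (0.182 and 1.27e-07). Odc1, ornithine decarboxylase of polyamine synthesis, was at 455, 1300 and 1162 against 493, 499 and 406 CPM (0.154 and 5.13e-06). In each, ketogenic replicates 2 and 3 stood above all chow libraries. Reep6 and Osta, a subunit of a basolateral bile acid and steroid transporter, also stood higher in those 2 libraries, with log2 fold changes without ketogenic replicate 1 of 1.27 and 1.11. Spp1, osteopontin, which tubules secrete, was lower in them, at 851, 391 and 336 against 1065, 1127 and 1030 CPM (0.129 and 1.83e-06). Myof and the lipoprotein-associated phospholipase Pla2g7 were likewise lower, at 84.1, 35.8 and 35.3 against 83.7, 81.6 and 88.9 CPM and 20.9, 11.2 and 11 against 28.2, 27.6 and 28.8 CPM. The ketogenic replicates 2 and 3 that carry these calls are also those with more proximal tubule and less thick ascending limb marker RNA, and the part of that difference was not tested.

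**Figure D2:**
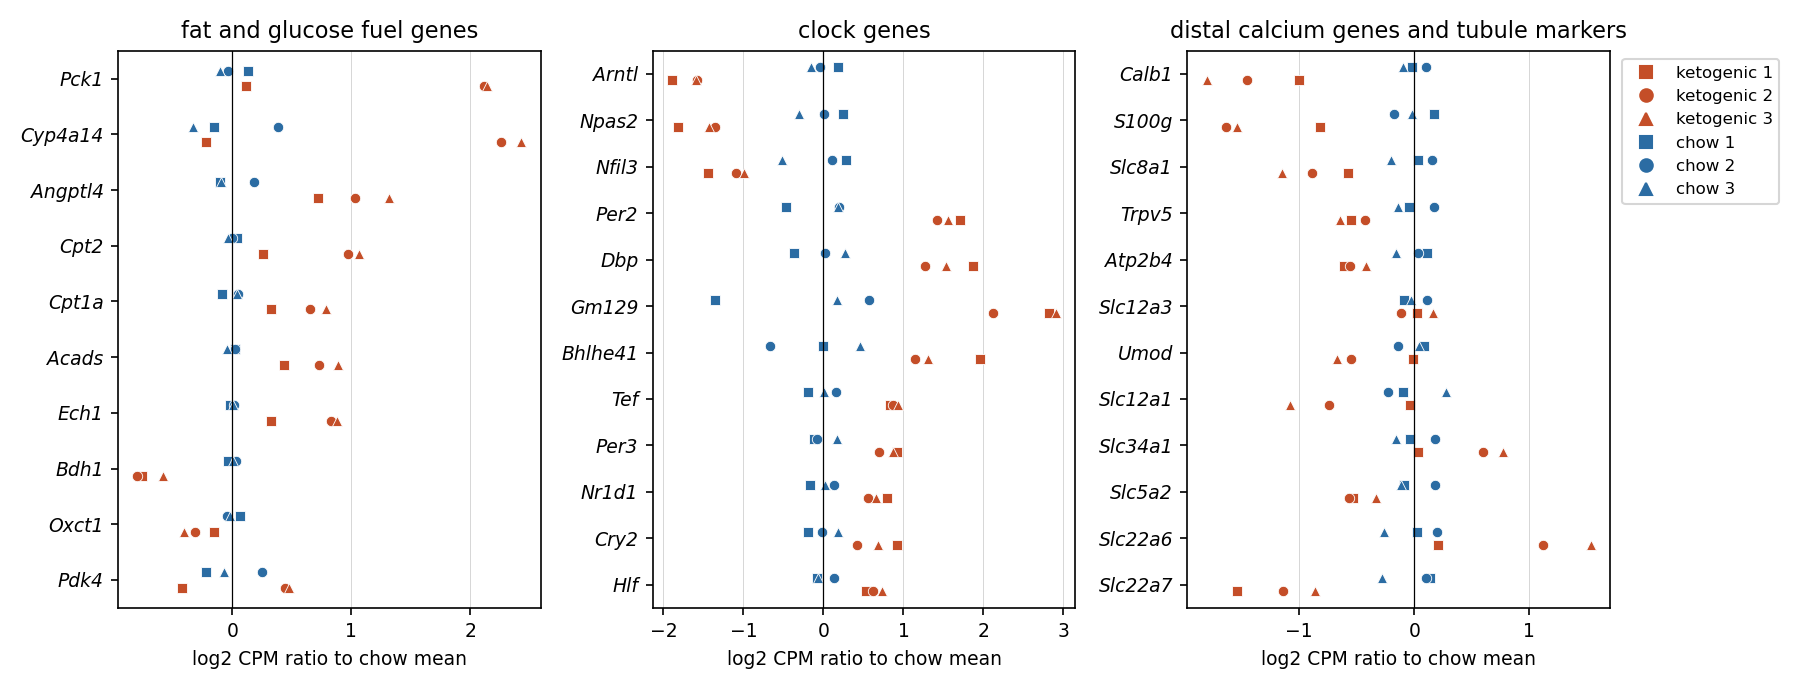
Level of fuel, clock and tubule genes in each kidney library (x axis: log2 of the CPM ratio to the mean of the 3 chow libraries; y axis: genes; symbols: replicates; colours: diets). Pck1 and Cyp4a14 are far to the right in ketogenic replicates 2 and 3 and near chow in replicate 1, whereas the clock genes move together in all 3 ketogenic libraries.

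Of 11 genes of ketone body metabolism 1 rose and 1 fell, and without ketogenic replicate 1, 5 rose and 3 fell. Bdh1, which interconverts acetoacetate and beta-hydroxybutyrate, was at 118, 115 and 133 CPM on the ketogenic diet and 195, 204 and 200.2 CPM on chow (log2 fold change -0.71, SE 0.08, adjusted p = 0.00212). Bdh1 was lower in every ketogenic library, replicate 1 included, and passed with any 1 library left out. Oxct1, the transferase that lets tissues burn ketone bodies, was at 1348, 1204 and 1130 against 1565, 1455 and 1483 CPM (log2 fold change -0.29, adjusted p = 0.136). For Oxct1 the log2 fold change without ketogenic replicate 1 was -0.36 (adjusted p = 0.0177). The monocarboxylate transporter Slc16a7 was at 165, 101 and 90.5 against 208, 181 and 206 CPM (log2 fold change -0.74, adjusted p = 0.0938). For Slc16a7 the log2 fold change without ketogenic replicate 1 was -1.05 (adjusted p = 1.38e-05). The diets did not overlap for either gene.

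None of 12 gluconeogenesis genes, 21 citric acid cycle genes or 42 oxidative phosphorylation genes passed with all libraries, and among 17 glycolysis genes only Pfkp did, a platelet-type phosphofructokinase at 49.5, 41.3 and 41.4 against 60, 55 and 71 CPM (log2 fold change -0.49, adjusted p = 0.0309). That call was lost without ketogenic 2, ketogenic 3, chow 1 or chow 3 (adjusted p = 0.106 to 0.115). By medians, gluconeogenesis stood at 0.30, the citric acid cycle at 0.06, oxidative phosphorylation at -0.15 and glycolysis at 0.04 on the log2 scale. Without ketogenic replicate 1, 6 gluconeogenesis genes rose and 1 fell, 2 citric acid cycle genes rose and 1 fell, 2 oxidative phosphorylation genes fell, and 4 glycolysis genes fell with 1 risen. G6pc, which releases free glucose, was at 259, 389 and 507 CPM on the ketogenic diet and 279.8, 337 and 223 CPM on chow (log2 fold change 0.46, adjusted p = 0.309). For G6pc the log2 fold change without ketogenic replicate 1 was 0.68 (adjusted p = 0.0545). Pkm2, the pyruvate kinase gene, was at 273, 190.4 and 189 against 283, 284 and 339 CPM (log2 fold change -0.48, adjusted p = 0.0934). For Pkm2 the log2 fold change without ketogenic replicate 1 was -0.67 (adjusted p = 0.000494). Ketogenic and chow libraries stood apart for Pkm2 and overlapped for G6pc.

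The largest rises were cytochrome P450 genes and secreted proteins, several of them known as androgen-responsive in mouse kidney. Of the 12 largest rises that passed, among genes with a mean log2 CPM of at least 2, 8 were cytochromes P450: Cyp4a12a, Cyp2a4, Cyp2a5, Cyp4a12b, Cyp7b1, Cyp2e1, Cyp4b1 and Cyp2j13. Cyp2a4, a steroid hydroxylase gene at chr7:27092211-27100107 on mm9, was at 323, 402 and 307 CPM on the ketogenic diet and 15.8, 8.59 and 8.01 CPM on chow (log2 fold change 5.0, SE 0.29, adjusted p = 0.000881). Cyp7b1, an oxysterol and steroid hydroxylase, was at 95.4, 157 and 146 against 20.9, 11.8 and 15.3 CPM (log2 fold change 3.05, SE 0.28, adjusted p = 0.00298). Cyp2e1, which oxidises ethanol, acetone and fatty acids, was at 802, 1597 and 1685 against 147, 186 and 179 CPM (log2 fold change 3.00, SE 0.30, adjusted p = 0.00248). All 3 ketogenic libraries, replicate 1 included, lay above all chow libraries for these genes, and each passed with any 1 library left out.

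Cyp4b1, a fatty acid hydroxylase at chr4:115297333-115320310 on mm9, was at 1939, 3916 and 4294 CPM on the ketogenic diet and 598, 669 and 533 CPM on chow (log2 fold change 2.50, SE 0.30, adjusted p = 0.00378). Cyp2j13, an epoxygenase family member, was at 196, 397 and 385 against 68.3, 73.2 and 52.4 CPM (log2 fold change 2.33, SE 0.31, adjusted p = 0.00962). Cyp4a12a, which makes the vasoactive lipid 20-HETE in male mice, was at 17.7, 90.7 and 134 against 0.734, 0.942 and 0.811 CPM (log2 fold change 6.60, SE 1.14, adjusted p = 0.0395). Its ketogenic levels differed several-fold from each other, and its call was lost when any 1 library other than ketogenic 1 was left out (adjusted p = 0.0744 to 0.148). Its neighbour Cyp4a12b was at 10.2, 19.3 and 24.8 against 2.03, 2.66 and 1.68 CPM (log2 fold change 3.09, adjusted p = 0.00418) and Cyp2a5 at 139.6, 120.5 and 142 against 11, 17.4 and 15.3 CPM (log2 fold change 3.20, adjusted p = 0.000213). Cyp2a4 and Cyp2a5, and Cyp4a12a and Cyp4a12b, are near-identical pairs whose shared reads were split, so the values of each single gene are uncertain.

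Azgp1, a secreted lipid-mobilising glycoprotein at chr5:138422749-138431460 on mm9, was at 38.6, 39.5 and 29 CPM on the ketogenic diet and 2.03, 0.942 and 2.27 CPM on chow (log2 fold change 4.34, SE 0.27, adjusted p = 0.000555). Pzp, a broad protease inhibitor, was at 56.9, 181 and 187 against 17.4, 8.97 and 12.9 CPM (log2 fold change 3.44, adjusted p = 0.0383). Cml5, an N-acetyltransferase family gene, was at 15.1, 32.8 and 37.4 against 3.05, 2.55 and 2.49 CPM (log2 fold change 3.40, adjusted p = 0.00448), and Fcamr, a receptor for immunoglobulins A and M, at 19.9, 36 and 36.4 against 5.25, 5.65 and 7.74 CPM (log2 fold change 2.31, adjusted p = 0.00461). No chow library reached any ketogenic library in these 4 genes. Pzp lost its call when any 1 library other than ketogenic 1 was left out (adjusted p = 0.101 to 0.125), while the other 3 kept theirs whichever library was left out.

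The 12 androgen-responsive kidney genes on the list included Cyp2e1, Cyp7b1 and Cyp4b1, which rose, as did Adh1, alcohol dehydrogenase, at 306, 467 and 455 CPM on the ketogenic diet and 235, 206 and 176 CPM on chow (log2 fold change 0.99, adjusted p = 0.015). No member fell, and the median log2 fold change was 0.79. With ketogenic replicate 1 left out, 11 of the 12 rose (median 0.98). Kap, which encodes the kidney androgen-regulated protein, was at 11930, 18730 and 14730 against 12580, 10180 and 11790 CPM (log2 fold change 0.39, adjusted p = 0.214). For Kap the log2 fold change without ketogenic replicate 1 was 0.54 (adjusted p = 0.0135). Slco1a1, an organic anion transporter, was at 86.7, 539 and 511 against 43.2, 26.2 and 26.7 CPM (log2 fold change 3.56, adjusted p = 0.0755). For Slco1a1 the log2 fold change without ketogenic replicate 1 was 4.04 (adjusted p = 0.000499). For Kap the diets overlapped through ketogenic replicate 1, and for Slco1a1 they did not overlap. Adh1 lost its call without ketogenic 2, ketogenic 3, chow 2 or chow 3 (adjusted p = 0.0505 to 0.0604).

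**Figure D3:**
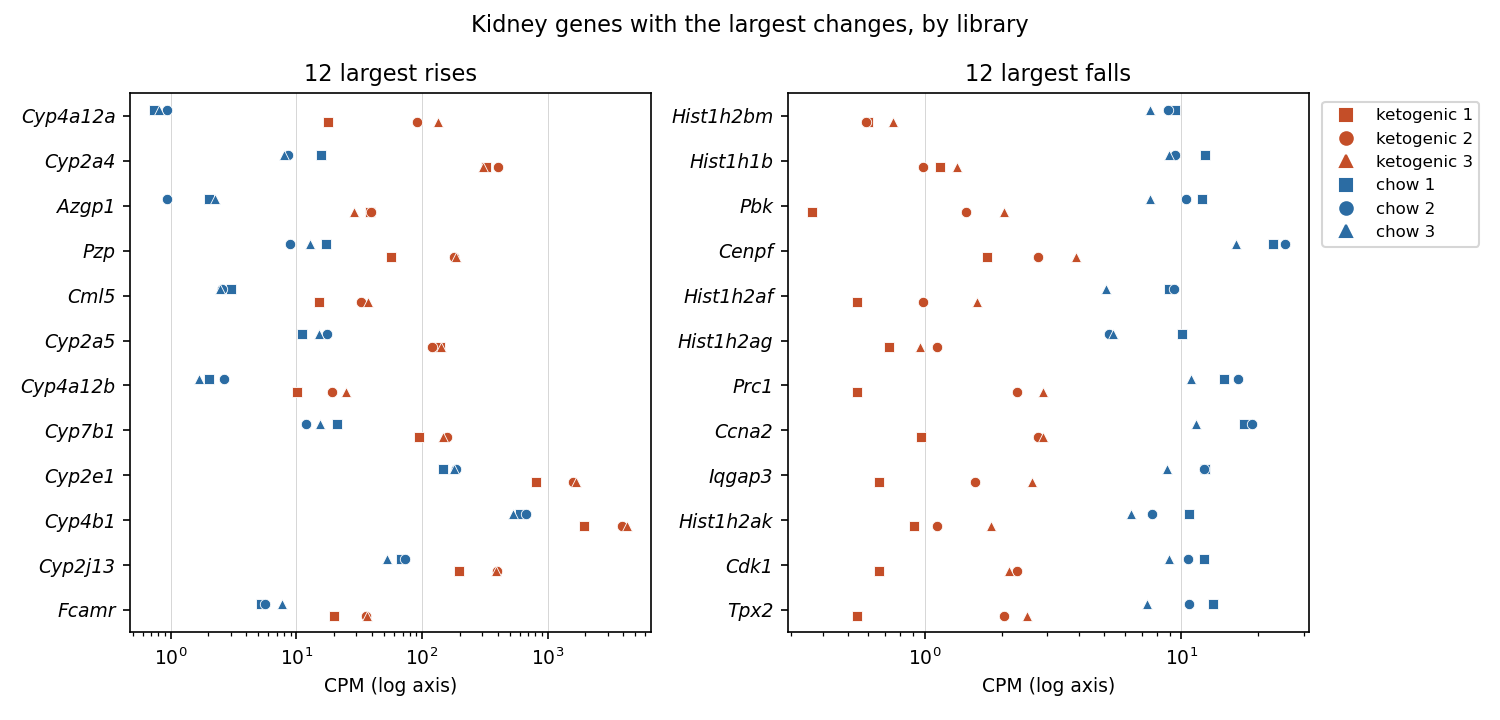
CPM in each kidney library of the 12 genes with the largest rises (left) and the 12 with the largest falls (right) among those that passed (log x axes; symbols: replicates; colours: diets). No gene has overlapping diets; ketogenic replicate 1 is the lowest ketogenic library for most rises and also for most of the falls.

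Transporters of the proximal tubule moved in both directions. Of 25 organic ion transporters, which secrete drugs and metabolites into urine, 5 rose and 3 fell (median log2 fold change 0.43), and without ketogenic replicate 1, 16 rose and 4 fell. Slco1a6 was at 196, 291 and 287 CPM on the ketogenic diet and 127, 131 and 108 CPM on chow (log2 fold change 1.08, SE 0.16, adjusted p = 0.00627), Slco2b1 at 58.3, 58.3 and 63.8 against 40, 40.3 and 36.8 CPM (log2 fold change 0.62, adjusted p = 0.00238) and Slc22a4, the ergothioneine and carnitine transporter, at 77.5, 80.4 and 88.3 against 49.2, 53.5 and 58.9 CPM (log2 fold change 0.61, adjusted p = 0.0049). All 3 were higher in every ketogenic library. Slc22a19, an organic anion transporter, was at 80.5, 80.2 and 66.6 against 182, 195 and 171 CPM (log2 fold change -1.27, SE 0.10, adjusted p = 0.000555). Slc22a7, the organic anion transporter OAT2, was at 74.2, 97.6 and 118 against 237, 231 and 177 CPM (log2 fold change -1.15, adjusted p = 0.0116), and Abcc3, an efflux pump, at 7.69, 4.97 and 6.82 against 9.49, 15.8 and 14.6 CPM (log2 fold change -1.03, adjusted p = 0.0276). These 3 were lower in every ketogenic library. Slc22a6, OAT1 of the proximal tubule, was at 600.5, 1130 and 1503 against 529.6, 598 and 432 CPM (log2 fold change 1.05, adjusted p = 0.101). For Slc22a6 the log2 fold change without ketogenic replicate 1 was 1.34 (adjusted p = 0.000629). The call of Slc22a7 was lost without chow 1 (adjusted p = 0.0595) and that of Abcc3 without ketogenic 2, ketogenic 3, chow 2 or chow 3 (adjusted p = 0.0821 to 0.112).

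Of 24 glucose and amino acid transporters 2 rose and 2 fell (3.59% of all genes tested rose and 5.45% fell). Without ketogenic replicate 1, 8 of them rose and 5 fell. Slc2a9, a urate and hexose carrier, was at 23.9, 27 and 29.7 CPM on the ketogenic diet and 15.5, 18.1 and 17.6 CPM on chow (log2 fold change 0.65, adjusted p = 0.00806), and Slc2a5, the fructose carrier, at 112, 114 and 129.7 against 81.9, 102 and 86 CPM (log2 fold change 0.40, adjusted p = 0.044). Slc5a2, the main glucose reabsorbing cotransporter SGLT2, was at 451, 438 and 518 against 610, 738 and 602 CPM (log2 fold change -0.47, adjusted p = 0.0404), and Slc7a8, a basolateral neutral amino acid exchanger, at 229, 259 and 296 against 408, 486 and 386 CPM (log2 fold change -0.71, adjusted p = 0.0113). The diets did not overlap for these 4 genes. Slc2a5 lost its call without ketogenic 2, ketogenic 3, chow 1 or chow 3 (adjusted p = 0.103 to 0.186), Slc5a2 when any 1 library other than ketogenic 1 was left out (adjusted p = 0.0555 to 0.15) and Slc7a8 without ketogenic 2 (adjusted p = 0.0507).

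Proximal tubule identity genes did not move as a block. Among 14 S1 and S2 markers 1 rose, the sodium-proton exchanger Slc9a3 (139, 143 and 149 against 98.2, 117 and 122 CPM; log2 fold change 0.36, adjusted p = 0.0455), and 3 fell: Slc5a2, the phosphate cotransporter Slc34a3 (67.7, 51.5 and 56.5 against 76.5, 86.7 and 77.8 CPM; log2 fold change -0.46, adjusted p = 0.0331) and the creatine synthesis enzyme Gatm (772, 871 and 688 against 1190, 1265 and 1077 CPM; log2 fold change -0.60, adjusted p = 0.0193). Among 10 S3 markers Cyp7b1 and Slc27a2, a very long chain acyl-CoA synthetase, rose and Slc22a7 fell. Log2 fold changes were positive in 10 of the 14 and 7 of the 10 markers, against 7302 of 14526 genes tested. Without ketogenic replicate 1, 6 S1 and S2 markers rose and 3 fell (median 0.35), and 4 S3 markers rose and 1 fell (median 0.24). Of all genes 11.3% then rose and 11.8% fell. Slc27a2 was at 3427, 4232 and 4208 CPM on the ketogenic diet and 2019, 2471 and 2138 CPM on chow (log2 fold change 0.84, adjusted p = 0.00802). Slc34a1, the main phosphate cotransporter of the proximal tubule, was at 4839, 7183 and 8058 against 4612, 5362 and 4232 CPM (log2 fold change 0.50, adjusted p = 0.146). For Slc34a1 the log2 fold change without ketogenic replicate 1 was 0.69 (adjusted p = 0.00186). Gatm was lower in all 3 ketogenic libraries while the summed S1 and S2 markers were not. Slc9a3 lost its call when any 1 library other than ketogenic 1 was left out (adjusted p = 0.076 to 0.159) and Slc34a3 when any 1 library other than ketogenic 1 was left out (adjusted p = 0.1 to 0.116). The call of Gatm was lost without ketogenic 3, chow 1 or chow 2 (adjusted p = 0.0549 to 0.0899) and that of Slc27a2 without chow 1 or chow 3 (adjusted p = 0.0509 to 0.0604).

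In the distal tubule the genes that carry calcium across the cell were lower on the ketogenic diet. Of 21 genes of calcium, phosphate and vitamin D handling 7 fell and 1 rose, and without ketogenic replicate 1, 10 fell and 3 rose. Calb1, calbindin-D28k, which ferries calcium through the cytosol (chr4:15808411-15833856 on mm9), was at 268, 197 and 154 CPM on the ketogenic diet and 531, 578 and 502 CPM on chow (log2 fold change -1.38, SE 0.19, adjusted p = 0.00506). S100g, calbindin-D9k, was at 444, 252 and 270.2 against 885, 694 and 776 CPM (log2 fold change -1.29, SE 0.22, adjusted p = 0.0147). Slc8a1, the basolateral sodium-calcium exchanger, was at 529, 426 and 356 against 807, 878 and 687 CPM (log2 fold change -0.85, SE 0.16, adjusted p = 0.0131). Ketogenic replicate 1 lay between the chow libraries and the other ketogenic libraries in all 3, without overlap between diets.

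Trpv5, the apical calcium channel of the same cells, was at 18.3, 19.9 and 17.2 CPM on the ketogenic diet and 26, 30.1 and 24.3 CPM on chow (log2 fold change -0.54, adjusted p = 0.0176), and Atp2b4, a plasma membrane calcium pump, at 42, 43.6 and 48.1 against 69.5, 65.6 and 57.4 CPM (log2 fold change -0.53, adjusted p = 0.0107). Both were lower in every ketogenic library. The member that rose was the phosphate transporter Slc20a1 (30.2, 39.9 and 40.9 against 25.3, 26.9 and 27.1 CPM; log2 fold change 0.49, adjusted p = 0.0354). Slc12a3, the thiazide-sensitive cotransporter that defines the distal convoluted tubule, was at 952, 863 and 1046 against 882, 1010 and 917 CPM (log2 fold change 0.03, adjusted p = 0.906) and overlapped between diets. It is 1 of 10 markers listed for the distal convoluted and connecting tubule. Of these 4 fell and 0 rose, against 5.45% and 3.59% of all genes tested. The summed markers of the distal convoluted and connecting tubule, a list that holds Calb1, S100g, Slc8a1 and Trpv5, were at 3876, 3187 and 3223 CPM on the ketogenic diet and 4965, 4881 and 4523 CPM on chow. Calb1 passed with any 1 library left out, whereas 1 of these 8 calls was kept without chow 1. S100g lost its call without chow 1 or chow 3 (adjusted p = 0.0503 to 0.0765), Slc8a1 without ketogenic 2, chow 1 or chow 2 (adjusted p = 0.0545 to 0.0739) and Trpv5 without ketogenic 3, chow 1 or chow 2 (adjusted p = 0.0561 to 0.069). Atp2b4 lost its call without chow 1 (adjusted p = 0.0567) and Slc20a1 when any 1 library other than ketogenic 1 was left out (adjusted p = 0.0805 to 0.15).

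Kl, Cyp27b1 and Cyp24a1, genes of the hormones of calcium and phosphate balance, did not pass with all libraries. Kl, the co-receptor klotho, was at 1008, 1155 and 1129 CPM on the ketogenic diet and 1207, 1360 and 1109 CPM on chow (log2 fold change -0.16, adjusted p = 0.421). Cyp27b1, which makes active vitamin D, was at 11.9, 2.55 and 3.94 against 5.08, 8.47 and 6.38 CPM (log2 fold change -0.11, adjusted p = 0.927), and Cyp24a1, which breaks it down, at 13.3, 67.6 and 105 against 51.4, 43.4 and 37.2 CPM (log2 fold change 0.50, adjusted p = 0.725). Ketogenic replicate 1 was the highest of all libraries for Cyp27b1 and the lowest for Cyp24a1. Without it Cyp27b1 passed (log2 fold change -1.02, adjusted p = 0.0172) and Cyp24a1 did not (log2 fold change 0.98, adjusted p = 0.0516).

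None of 11 thick ascending limb markers passed with all libraries, and 9 of the 11 fell without ketogenic replicate 1. Umod, uromodulin, the main protein of normal urine, was at 3600, 2466 and 2266 CPM on the ketogenic diet and 3845, 3289 and 3716 CPM on chow (log2 fold change -0.38, adjusted p = 0.218). For Umod the log2 fold change without ketogenic replicate 1 was -0.61 (adjusted p = 0.00206). Slc12a1, the loop diuretic target NKCC2, was at 1987, 1217 and 963 against 1899, 1742 and 2464 CPM (log2 fold change -0.55, adjusted p = 0.245). For Slc12a1 the log2 fold change without ketogenic replicate 1 was -0.90 (adjusted p = 0.00464). Ptger3, a prostaglandin E2 receptor, was at 47.4, 30 and 27.6 against 71.7, 54 and 72.4 CPM (log2 fold change -0.92, adjusted p = 0.0551). For Ptger3 the log2 fold change without ketogenic replicate 1 was -1.20 (adjusted p = 0.000253). Ketogenic replicate 1 lay within the chow range for Slc12a1 and Umod and below it for Ptger3.

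Among 26 genes of salt and potassium handling 1 rose and 1 fell, against 3.59% and 5.45% of all genes tested. Without ketogenic replicate 1, 3 rose and 9 fell, against 11.3% and 11.8%. Slc12a2, the secretory cotransporter NKCC1, was at 92.4, 93.5 and 108 CPM on the ketogenic diet and 70, 67.2 and 68 CPM on chow (log2 fold change 0.52, adjusted p = 0.00617) and passed with any 1 library left out. Kcnj10, a basolateral potassium channel, was at 82.5, 89.9 and 80.6 against 99.4, 103 and 104 CPM (log2 fold change -0.28, adjusted p = 0.0455), a call lost when any 1 library other than ketogenic 1 was left out (adjusted p = 0.0741 to 0.159). Ren1, renin, was at 28.2, 46.2 and 59.9 against 78.7, 77 and 63.7 CPM (log2 fold change -0.71, adjusted p = 0.163). For Ren1 the log2 fold change without ketogenic replicate 1 was -0.46 (adjusted p = 0.0328). There was no overlap between diets for any of these 3 genes.

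Of 20 genes of acid excretion and ammonia production 2 rose and 2 fell, against 3.59% and 5.45% of all genes tested. Without ketogenic replicate 1, 7 rose and 4 fell, against 11.3% and 11.8%. Car15, a membrane carbonic anhydrase, was at 90.4, 88.1 and 82.7 CPM on the ketogenic diet and 115, 129 and 125 CPM on chow (log2 fold change -0.50, adjusted p = 0.00557), and Rhbg, the basolateral ammonia channel, at 39.8, 36.2 and 33.3 against 53.2, 54.1 and 46.2 CPM (log2 fold change -0.49, adjusted p = 0.0152). Slc25a10, the mitochondrial dicarboxylate carrier, was at 360.4, 515 and 549 against 292, 326 and 282 CPM (log2 fold change 0.66, adjusted p = 0.0344). The diets did not overlap for these genes. Glud1, an ammonia-producing enzyme, was at 495, 710.5 and 674 against 552, 544 and 531 CPM (log2 fold change 0.21, adjusted p = 0.367) and passed without ketogenic replicate 1 (log2 fold change 0.35, adjusted p = 0.0116). Rhbg lost its call without ketogenic 2, ketogenic 3, chow 1 or chow 2 (adjusted p = 0.0518 to 0.0834) and Slc25a10 when any 1 library other than ketogenic 1 was left out (adjusted p = 0.0665 to 0.148).

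Clock genes changed together in all 3 ketogenic libraries, replicate 1 included. Of 21 genes 13 rose and 3 fell (median log2 fold change 0.55), and the same numbers passed without ketogenic replicate 1. The positive limb of the clock was lower: Arntl, which encodes the activator BMAL1, was at 4.32, 5.36 and 5.33 CPM on the ketogenic diet and 18.1, 15.6 and 14.4 CPM on chow (log2 fold change -1.68, SE 0.15, adjusted p = 0.000916), and its partner Npas2 at 3.72, 5.1 and 4.85 against 15.6, 13.1 and 10.6 CPM (log2 fold change -1.52, SE 0.19, adjusted p = 0.00238). Nfil3, a repressor of D-box genes, was at 2.1, 2.68 and 2.88 against 7.0, 6.2 and 4.0 CPM (log2 fold change -1.16, adjusted p = 0.0248). All 3 ketogenic libraries were below every chow library for these genes. The third activator, Clock, was at 75.5, 88 and 85.9 against 84.4, 93.6 and 88.2 CPM (log2 fold change -0.09, adjusted p = 0.511).

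The genes that rose included repressors and output factors that BMAL1 is known to drive. Per2 was at 55.4, 45.1 and 49.5 CPM on the ketogenic diet and 12.2, 19.4 and 19.1 CPM on chow (log2 fold change 1.56, adjusted p = 0.00291), Per3 at 68.2, 58.2 and 66.1 against 33.4, 34.3 and 40.7 CPM (log2 fold change 0.83, adjusted p = 0.00238) and Gm129, the repressor also called Ciart or Chrono, at 10.2, 6.28 and 10.9 against 0.565, 2.16 and 1.62 CPM (log2 fold change 2.65, adjusted p = 0.0101). Dbp was at 183, 121 and 145 against 38.9, 51 and 60.6 CPM (log2 fold change 1.58, adjusted p = 0.00617), Tef at 306, 316 and 328 against 150.4, 193 and 174 CPM (log2 fold change 0.88, adjusted p = 0.00228) and Hlf at 129, 137 and 148 against 84.5, 97.3 and 85.2 CPM (log2 fold change 0.63, adjusted p = 0.00359); these 3 genes encode the PAR-domain activators of D-box genes. Nr1d1, which encodes the BMAL1 repressor REV-ERB-alpha, was at 179.6, 152 and 164 against 92.5, 113 and 105 CPM (log2 fold change 0.67, adjusted p = 0.00467). In each of these 7 genes all ketogenic libraries stood above all chow libraries. Per1 and Cry1 did not pass, with adjusted p = 0.306 and 0.819. The hour at which the tissue was taken is not in the labels, so a shift in time and a change in level cannot be told apart. Of the 16 calls, 9 were kept without chow 2, the fewest, and 10 without chow 1. Nfil3 lost its call without ketogenic 2, ketogenic 3, chow 1 or chow 2 (adjusted p = 0.0542 to 0.117), while Arntl, Npas2 and the 7 genes above passed with any 1 library left out.

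Promoters are shown of clock genes that passed and in which the E-box letters CACGTG, which BMAL1 and its partners bind, can be read, with that of Nfil3 for another motif. Each line gives the 200 bases just before the annotated start on the GRCm38.p6 build, from RefSeq, 5′ to 3′ along the gene, with CACGTG in capitals. In Nfil3 the capitals mark TGACCTA, the reverse complement of the ROR core TAGGTCA, read by REV-ERB and ROR receptors.
Gm129, chr3:95882229-95882428, minus strand: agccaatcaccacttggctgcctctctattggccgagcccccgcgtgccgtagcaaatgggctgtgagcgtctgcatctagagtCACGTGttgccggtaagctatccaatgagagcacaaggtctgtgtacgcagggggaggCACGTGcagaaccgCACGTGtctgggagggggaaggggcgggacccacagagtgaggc
Bhlhe41, chr6:145865421-145865620, minus strand: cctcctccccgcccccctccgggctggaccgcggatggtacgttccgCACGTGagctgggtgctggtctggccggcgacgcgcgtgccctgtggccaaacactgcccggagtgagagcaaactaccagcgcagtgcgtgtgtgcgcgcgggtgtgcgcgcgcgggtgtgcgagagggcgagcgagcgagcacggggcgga
Tef, chr15:81802473-81802672, plus strand: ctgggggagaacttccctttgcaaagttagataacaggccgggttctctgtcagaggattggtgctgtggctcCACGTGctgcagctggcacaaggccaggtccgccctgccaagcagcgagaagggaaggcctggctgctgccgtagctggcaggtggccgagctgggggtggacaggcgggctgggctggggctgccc
Nfil3, chr13:52981040-52981239, minus strand: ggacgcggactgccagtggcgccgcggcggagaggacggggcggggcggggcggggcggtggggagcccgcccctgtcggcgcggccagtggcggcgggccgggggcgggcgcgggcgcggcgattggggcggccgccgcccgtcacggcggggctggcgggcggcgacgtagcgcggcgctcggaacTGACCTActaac
Among 17 clock genes with a RefSeq promoter, 5 (29.4%) held CACGTG on either strand within the 300-base window from 250 bases before to 50 bases after a start, against 8.09% of 27025 genes. The ROR core was in 2 (11.8%) against 2.97%, and the D-box TTATGTAA in 1 (5.88%) against 1.11%. The 5 genes with CACGTG were Gm129, Bhlhe41 and Tef, which rose, and Per1 and Cry1, which did not pass. Per3, Dbp, Hlf and Nr1d1 rose without these letters in the window. A match of letters describes the sequence only. Bhlhe41, whose promoter is shown, encodes the repressor DEC2 and was at 7.51, 4.25 and 4.79 CPM on the ketogenic diet and 1.92, 1.22 and 2.65 CPM on chow (log2 fold change 1.51, adjusted p = 0.024), with all ketogenic libraries above all chow libraries and a call lost without ketogenic 3, chow 1 or chow 2 (adjusted p = 0.0512 to 0.116).

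Genes of cell division were lower in the kidneys of all 3 ketogenic mice. Of 36 genes of mitosis and cytokinesis 32 fell and none rose, with a median log2 fold change of -2.30, and all 36 had every ketogenic library below every chow library (16.4% of all genes tested did). Cenpf, a kinetochore protein made in G2, was at 1.74, 2.75 and 3.89 CPM on the ketogenic diet and 22.8, 25.4 and 16.3 CPM on chow (log2 fold change -2.93, SE 0.29, adjusted p = 0.00212). Ccna2, cyclin A2, was at 0.961, 2.75 and 2.88 against 17.5, 18.9 and 11.4 CPM (log2 fold change -2.85, SE 0.38, adjusted p = 0.00639), and Cdk1, the kinase that starts mitosis, at 0.661, 2.29 and 2.13 against 12.2, 10.6 and 8.93 CPM (log2 fold change -2.64, SE 0.37, adjusted p = 0.0059). Ketogenic replicate 1 was the lowest library in these genes, further from chow than the other 2. Bub1, of the spindle checkpoint, was at 0.54, 0.458 and 0.693 against 5.76, 4.76 and 3.73 CPM (log2 fold change -3.05, adjusted p = 0.00126) and Racgap1, of cytokinesis, at 2.58, 3.92 and 3.25 against 14.3, 12.7 and 9.36 CPM (log2 fold change -1.90, adjusted p = 0.0021). Mki67, the source of the Ki-67 proliferation antigen, was at 4.5, 13.2 and 18.3 against 79.3, 81.6 and 54 CPM (log2 fold change -2.57, adjusted p = 0.0478). All ketogenic libraries lay below all chow libraries for each of these, and Cenpf, Ccna2, Cdk1, Bub1 and Racgap1 passed with any 1 library left out. Mki67 lost its call when any 1 library other than ketogenic 1 was left out (adjusted p = 0.0661 to 0.151).

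Besides Cenpf, Ccna2 and Cdk1, the 12 largest falls (with the same minimum level as the rises) held Pbk, Prc1, Iqgap3 and Tpx2, which act in the spindle and in cytokinesis, with log2 fold changes of -2.96, -2.87, -2.76 and -2.61. Prc1 lost its call without ketogenic 2, chow 1 or chow 2 (adjusted p = 0.0551 to 0.0742), Tpx2 without ketogenic 2, chow 1 or chow 2 (adjusted p = 0.06 to 0.0797) and Pbk without chow 1 (adjusted p = 0.0574). The remaining 5 were histone genes of the Hist1 cluster. Hist1h2bm was at 0.601, 0.589 and 0.746 CPM on the ketogenic diet and 9.49, 8.86 and 7.57 CPM on chow (log2 fold change -3.72, SE 0.21, adjusted p = 0.000213) and Hist1h1b, a linker histone, at 1.14, 0.981 and 1.33 against 12.4, 9.47 and 8.93 CPM (log2 fold change -3.14, SE 0.21, adjusted p = 0.000419). Hist1h2af, Hist1h2ag and Hist1h2ak had log2 fold changes of -2.88, -2.88 and -2.68. Core histone genes are near-identical and reads shared between them were split, so the value of each single gene is uncertain. Without ketogenic replicate 1, 35 of the 36 mitosis genes fell (median -1.97), and without chow 1, 16 did.

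DNA replication genes fell less steeply. Of 33 tested 24 fell and none rose (median log2 fold change -0.73). Rrm2, the regulated subunit of ribonucleotide reductase, was at 4.87, 6.54 and 8.47 CPM on the ketogenic diet and 27.4, 26.2 and 22.3 CPM on chow (log2 fold change -1.93, SE 0.19, adjusted p = 0.0015). Mcm5 and Mcm3, of the replicative helicase, were at 4.44, 6.47 and 6.45 against 21.5, 17.2 and 16.4 CPM (log2 fold change -1.66, adjusted p = 0.00163) and 7.15, 6.02 and 6.23 against 18.5, 15.4 and 14.1 CPM (log2 fold change -1.31, adjusted p = 0.00196). Pole, the catalytic subunit of polymerase epsilon, was at 2.88, 3.6 and 4.37 against 11.3, 10.5 and 9.9 CPM (log2 fold change -1.54, adjusted p = 0.00212). These 4 were lower in every ketogenic library and passed with any 1 library left out. With ketogenic replicate 1 left out, 25 of the list fell and 1 rose, and without chow 1, 13 fell.

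Promoters of 3 of these mitosis genes are shown, picked because a pair of short motifs can be read in their 200 bases. The pair is the CHR element TTTGAA, bound by the DREAM and MuvB complexes, and the CCAAT box CCAAT, bound by NF-Y. Many other genes of the list, Bub1, Cenpf and Nusap1 among them, lack TTTGAA in that stretch. Both were searched on both strands and are in capitals (TTCAAA and ATTGG are the reverse complements); none of the marked matches overlap. Each line gives the 200 bases before the start on GRCm38.p6, from RefSeq, 5′ to 3′ along the gene.
Ccnb2, chr9:70421555-70421754, minus strand: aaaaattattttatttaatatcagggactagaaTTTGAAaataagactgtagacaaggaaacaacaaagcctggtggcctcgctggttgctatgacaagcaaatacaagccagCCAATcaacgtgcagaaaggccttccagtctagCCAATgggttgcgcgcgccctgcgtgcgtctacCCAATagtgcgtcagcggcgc
Cdk1, chr10:69352913-69353112, minus strand: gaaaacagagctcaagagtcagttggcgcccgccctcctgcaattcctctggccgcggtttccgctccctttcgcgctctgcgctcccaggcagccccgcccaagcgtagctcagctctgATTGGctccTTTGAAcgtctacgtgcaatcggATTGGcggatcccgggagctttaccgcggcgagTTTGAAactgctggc
Top2a, chr11:99024190-99024389, minus strand: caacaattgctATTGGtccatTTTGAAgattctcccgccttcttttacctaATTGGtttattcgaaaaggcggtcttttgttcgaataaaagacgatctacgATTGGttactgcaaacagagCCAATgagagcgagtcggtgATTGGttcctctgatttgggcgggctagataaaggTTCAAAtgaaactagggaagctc
The 300-base window reaches beyond the bases printed. In it 24 of the 30 mitosis genes with a RefSeq promoter (80.0%) held TTTGAA, against 20.2% of 27025 genes and 0 of 17 clock genes. CCAAT was in 24 of 30 (80.0%) against 41.1%, but also in 13 of 17 clock genes (76.5%). Both motifs were in 21 of 30 mitosis genes (70.0%) against 7.97%. Ccnb2, cyclin B2, was at 0.48, 2.03 and 3.14 CPM on the ketogenic diet and 10.4, 8.81 and 7.9 CPM on chow (log2 fold change -2.24, adjusted p = 0.0395), and Top2a, topoisomerase II-alpha, at 2.46, 7.13 and 9.27 against 43.5, 40.3 and 27.1 CPM (log2 fold change -2.55, adjusted p = 0.033). Every ketogenic library was below every chow library for both. Their calls were lost without ketogenic 2, chow 1, chow 2 or chow 3 (adjusted p = 0.0975 to 0.149) and when any 1 library other than ketogenic 1 was left out (adjusted p = 0.0506 to 0.111).

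Collagens and other matrix genes were lower on the ketogenic diet. Of 40 tested 22 fell and 2 rose (median log2 fold change -0.98), and 33 had all ketogenic libraries below all chow libraries (16.4% of all genes tested did). The same numbers fell and rose without ketogenic replicate 1. Basement membrane genes fell: Col4a1 was at 345, 356 and 455 CPM on the ketogenic diet and 1020, 972 and 835 CPM on chow (log2 fold change -1.29, SE 0.14, adjusted p = 0.00164), Col4a2 at 275, 265 and 355 against 718, 701 and 618 CPM (log2 fold change -1.19, SE 0.13, adjusted p = 0.00207) and Nid2, nidogen-2, at 43, 39.4 and 48.5 against 98.8, 85.9 and 85.3 CPM (log2 fold change -1.04, SE 0.10, adjusted p = 0.00126). Serpinh1, the chaperone of collagen folding, was at 108, 105 and 120.1 against 276, 234 and 209 CPM (log2 fold change -1.11, SE 0.11, adjusted p = 0.0015). All 3 ketogenic libraries, replicate 1 included, were below all chow libraries in these 4 genes, and each passed with any 1 library left out.

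The fibrillar collagen Col1a1 was at 67.2, 59.1 and 121 CPM on the ketogenic diet and 656, 378 and 350.5 CPM on chow (log2 fold change -2.48, SE 0.39, adjusted p = 0.0204), and chow 1 held the highest level. Its call was lost without ketogenic 1, ketogenic 2 or chow 2 (adjusted p = 0.0521 to 0.0754). Col3a1, Fn1 and Col6a1 fell with log2 fold changes of -2.23, -1.30 and -1.19, and lost their calls without ketogenic 1, chow 1 or chow 2 (adjusted p = 0.0575 to 0.0883), without ketogenic 1, ketogenic 2, chow 1 or chow 2 (adjusted p = 0.0648 to 0.121) and without ketogenic 1, chow 1 or chow 2 (adjusted p = 0.0527 to 0.0737). The genes that rose were the growth factor gene Ctgf (132, 101 and 112 against 87.5, 80.2 and 84.3 CPM; log2 fold change 0.45, adjusted p = 0.0269) and the collagen hydroxylase P4ha2 (24.5, 22.8 and 28.4 against 19.6, 17.8 and 19.3 CPM; log2 fold change 0.42, adjusted p = 0.0388), calls lost without ketogenic 3, chow 1, chow 2 or chow 3 (adjusted p = 0.0626 to 0.105) and when any 1 library other than ketogenic 1 was left out (adjusted p = 0.0547 to 0.123). Summed fibroblast and pericyte markers were at 503, 423 and 534 CPM on the ketogenic diet and 1269, 844 and 828 CPM on chow, and chow 1 was also highest for smooth muscle markers. That list includes Col1a1. Its member Pdgfrb, a pericyte receptor, was at 106, 101 and 104 against 161, 134 and 127 CPM (log2 fold change -0.43, adjusted p = 0.0264), a call lost without ketogenic 2, ketogenic 3, chow 1 or chow 2 (adjusted p = 0.0527 to 0.101). Without chow 1, 13 matrix genes fell, and the part of the differing fibroblast and smooth muscle markers was not tested.

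The p53 program, named in the series title, gave 6 genes that fell and none that rose among 36 p53 targets (median log2 fold change -0.12). Across all genes tested 5.45% fell and 3.59% rose. Cdkn1a, which encodes the cell cycle inhibitor p21, was at 3.6, 3.33 and 5.59 CPM on the ketogenic diet and 9.32, 10.5 and 7.52 CPM on chow (log2 fold change -1.11, SE 0.23, adjusted p = 0.0187). All ketogenic libraries were below all chow libraries, and the call was lost without ketogenic 2, chow 1 or chow 2 (adjusted p = 0.0659 to 0.0885). Plk2 was at 15.7, 14.1 and 14.4 against 23.8, 21.2 and 21.7 CPM (log2 fold change -0.59, adjusted p = 0.00741), Ptp4a3 at 9.91, 10.4 and 11.9 against 16.5, 17 and 16.8 CPM (log2 fold change -0.64, adjusted p = 0.00879) and Bax, the pro-apoptotic pore protein, at 16.6, 16.6 and 20.4 against 26.7, 26.6 and 23.7 CPM (log2 fold change -0.52, adjusted p = 0.0213). Ccng1 and Apaf1 fell too, with log2 fold changes of -0.39 and -0.44. Bax lost its call without ketogenic 2, chow 1 or chow 2 (adjusted p = 0.0668 to 0.1), Ccng1 without ketogenic 2, chow 1, chow 2 or chow 3 (adjusted p = 0.0516 to 0.13) and Apaf1 when any 1 library other than ketogenic 1 was left out (adjusted p = 0.0723 to 0.149); of the 6 calls, 2 were kept without ketogenic replicate 2, chow 1 or chow 2. Mdm2, the p53 ubiquitin ligase and target, was at 52.7, 52.6 and 55.3 against 50.8, 49.8 and 53.8 CPM (log2 fold change 0.06, adjusted p = 0.636), and Trp53, the p53 gene, at 20.3, 23 and 32.5 against 32.9, 31.9 and 25.8 CPM (log2 fold change -0.25, adjusted p = 0.417); both overlapped between diets. Without ketogenic replicate 1, 8 p53 targets fell and 3 rose, against 11.8% and 11.3% of all genes tested.

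Of 29 senescence-associated genes tested 6 fell and 1 rose (median -0.02), against 5.45% and 3.59% of all genes tested. Without ketogenic replicate 1, 9 fell and 4 rose, against 11.8% and 11.3%. Lmnb1, lamin B1, whose loss is used as a sign of senescence and which dividing cells express more, was at 7.57, 8.18 and 8.31 CPM on the ketogenic diet and 19.5, 20.9 and 14.7 CPM on chow (log2 fold change -1.19, SE 0.15, adjusted p = 0.00255). Mmp2 and Mmp14, matrix metalloproteinases, were at 6.01, 5.82 and 8.95 against 22, 20.8 and 15.6 CPM (log2 fold change -1.48, adjusted p = 0.00391) and 14.8, 15.1 and 17.1 against 31.1, 28.5 and 27.1 CPM (log2 fold change -0.88, adjusted p = 0.00197). These 3 genes were lower in every ketogenic library and passed with any 1 library left out. The gene that rose was Igfbp4, an IGF binding protein (776, 855 and 929 against 599, 702 and 586 CPM; log2 fold change 0.44, adjusted p = 0.0479), a call lost without ketogenic 2, ketogenic 3, chow 1 or chow 3 (adjusted p = 0.142 to 0.194). Cdkn2a, which encodes p16, had 0 to 2 counts per library and was not tested. The cytokine genes Il6 and Il1a had 0 or 1 count per library. Others of the list, chosen after their values were seen, had too few counts for the test: the chemokine gene Cxcl1 had 62, 13 and 11 counts on the ketogenic diet and 6, 4 and 2 on chow, Tnf had 9, 7 and 6 against 7, 3 and 1, and the metalloproteinase gene Mmp3 had 2, 1 and 1 against 10, 9 and 6. Cxcl1 was thus above chow in every ketogenic library and Mmp3 below it. A link between the falls of Lmnb1 and of the mitosis genes was not tested.

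Of 21 injury markers tested 3 fell and none rose (median -0.36), against 5.45% and 3.59% of all genes tested. Without ketogenic replicate 1, 7 fell and 4 rose, against 11.8% and 11.3%. Those that fell with all libraries were Cdkn1a, the transcription factor Sox4 (19.2, 20.9 and 21.7 against 38.7, 34.2 and 37.8 CPM; log2 fold change -0.84, adjusted p = 0.00158) and clusterin, Clu (211, 164 and 184 against 331, 338 and 289 CPM; log2 fold change -0.78, adjusted p = 0.00469). Sox4 and Clu passed with any 1 library left out. Havcr1, which encodes the tubular injury antigen KIM-1, was at 0.781, 5.69 and 2.77 CPM on the ketogenic diet and 0.79, 1.5 and 0.757 CPM on chow (log2 fold change 1.59, adjusted p = 0.188). For Havcr1 the log2 fold change without ketogenic replicate 1 was 2.04 (adjusted p = 0.00354). Its highest level was in ketogenic replicate 2, and ketogenic replicate 1 was at the chow level. Lcn2, the injury marker NGAL, was at 2.88, 1.64 and 0.533 against 2.2, 2.49 and 2.98 CPM (log2 fold change -0.61, adjusted p = 0.467). For Lcn2 the log2 fold change without ketogenic replicate 1 was -1.27 (adjusted p = 0.047). Complement C3 was at 68.2, 68.5 and 114 against 46.6, 47.4 and 49.6 CPM (log2 fold change 0.80, adjusted p = 0.0571). For C3 the log2 fold change without ketogenic replicate 1 was 0.93 (adjusted p = 0.0419).

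Genes that present antigen to helper T cells were higher on the ketogenic diet. Of 35 genes of interferon response and antigen presentation 7 rose and 2 fell, and without ketogenic replicate 1, 8 rose and 3 fell. The class II genes H2-Aa, H2-Ab1 and H2-Eb1 were at 70.4, 97 and 75.8 against 47.5, 43.5 and 40.5 CPM (log2 fold change 0.89, SE 0.13, adjusted p = 0.00475), 63.3, 91.2 and 72.1 against 48.3, 42.3 and 40.8 CPM (log2 fold change 0.78, adjusted p = 0.0114) and 55, 83.4 and 67.3 against 40.6, 36.6 and 32.6 CPM (log2 fold change 0.90, adjusted p = 0.0124). Cd74, the invariant chain, was at 148, 234 and 188 CPM on the ketogenic diet and 121, 111 and 102 CPM on chow (log2 fold change 0.77, adjusted p = 0.0243), and Ciita, the master activator of class II genes, at 7.57, 15.4 and 9.86 against 5.36, 4.76 and 5.63 CPM (log2 fold change 1.06, adjusted p = 0.0359). Ketogenic replicate 2 was highest and no chow library reached a ketogenic one. The members that fell are interferon-stimulated: Isg15 at 3.24, 3.66 and 3.36 against 8.19, 6.04 and 5.46 CPM (log2 fold change -0.94, adjusted p = 0.0225) and Rsad2 at 47.2, 54.1 and 46.7 against 70.4, 63.4 and 66.3 CPM (log2 fold change -0.43, adjusted p = 0.0156). Macrophage markers summed to 161 to 213 CPM on the ketogenic diet and 184 to 203 CPM on chow, and 0 of 11 passed. Lymphocyte markers summed to 19.7, 35.3 and 29.1 CPM on the ketogenic diet and 25.9, 22.2 and 21.7 CPM on chow, highest in ketogenic replicate 2 as were the class II genes. Of 5 lymphocyte markers tested, Cd8a, a co-receptor of cytotoxic T cells, fell (0.781, 0.916 and 0.853 against 3.33, 3.1 and 1.95 CPM; log2 fold change -1.71, adjusted p = 0.011), a call lost without chow 1 (adjusted p = 0.0641). Ptprc, the leukocyte antigen CD45, was at 15.3, 26.6 and 22.2 against 15.7, 14.4 and 14.1 CPM (log2 fold change 0.53, adjusted p = 0.108) and passed without ketogenic replicate 1 (log2 fold change 0.72, adjusted p = 0.000885). The part of these cells in the class II levels was not tested. H2-Aa passed with any 1 library left out. H2-Ab1 lost its call without chow 2 or chow 3 (adjusted p = 0.0506 to 0.0571), H2-Eb1 without chow 2 or chow 3 (adjusted p = 0.0518 to 0.0521), and Cd74 without ketogenic 3, chow 1, chow 2 or chow 3 (adjusted p = 0.0744 to 0.0981). Ciita lost its call when any 1 library other than ketogenic 1 was left out (adjusted p = 0.0766 to 0.142), Isg15 without ketogenic 2, ketogenic 3, chow 1 or chow 2 (adjusted p = 0.0531 to 0.0998) and Rsad2 without ketogenic 3, chow 1 or chow 3 (adjusted p = 0.0559 to 0.0757). Of the list, 2 of the 9 calls were kept without chow 2 or without chow 3.

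Lipid synthesis genes split by step. Among 25 genes that make fatty acids and triglycerides 3 rose and 3 fell, against 3.59% and 5.45% of all genes tested. Without ketogenic replicate 1, 7 rose and 4 fell, against 11.3% and 11.8%. Besides the acetate-activating enzyme Acss2 (244, 304 and 304 against 196, 225 and 207 CPM; log2 fold change 0.44, adjusted p = 0.0383), Lpin1 and Lpin2, phosphatidate phosphatases of triglyceride assembly, rose, at 120.4, 156 and 184 against 80.5, 89.8 and 86 CPM (log2 fold change 0.85, adjusted p = 0.0115) and 120.4, 127 and 120.3 against 86.3, 85.1 and 93.8 CPM (log2 fold change 0.47, adjusted p = 0.00584). Scd2, Fads1 and Elovl5, which desaturate or elongate fatty acids, fell, at 146, 90.9 and 104 against 201, 193 and 182 CPM (log2 fold change -0.75, adjusted p = 0.0308), 111, 86.4 and 81 against 144, 149 and 122 CPM (log2 fold change -0.58, adjusted p = 0.0304) and 61.6, 60.6 and 59.1 against 74.8, 83.5 and 74.6 CPM (log2 fold change -0.36, adjusted p = 0.0197). The diets did not overlap for the Lpin genes, Scd2, Fads1 and Elovl5. Lpin2 passed with any 1 library left out, while Lpin1 lost its call without chow 1 or chow 3 (adjusted p = 0.0516 to 0.0705) and Acss2 when any 1 library other than ketogenic 1 was left out (adjusted p = 0.0563 to 0.168). The calls of Scd2, Fads1 and Elovl5 were lost when any 1 library other than ketogenic 1 was left out (adjusted p = 0.0673 to 0.138), without ketogenic 2, ketogenic 3, chow 1 or chow 2 (adjusted p = 0.0917 to 0.141) and when any 1 library other than ketogenic 1 was left out (adjusted p = 0.0558 to 0.0753).

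In the cholesterol list of 23 genes 3 fell and 1 rose, against 5.45% and 3.59% of all genes tested. Without ketogenic replicate 1, 7 fell and 2 rose, against 11.8% and 11.3%. The sterol enzymes Sc4mol and Fdps fell, at 27.3, 24.3 and 24.6 against 40.4, 36.1 and 33.9 CPM (log2 fold change -0.53, adjusted p = 0.00979) and 15.2, 10.5 and 12.1 against 21.7, 24.1 and 18.3 CPM (log2 fold change -0.76, adjusted p = 0.0197), and Sc5d rose, at 50.7, 50.8 and 52.6 against 37.3, 41.5 and 36.8 CPM (log2 fold change 0.41, adjusted p = 0.0125). Ketogenic and chow libraries did not overlap in these 3 genes. Sc4mol lost its call without chow 1 (adjusted p = 0.053), Fdps without ketogenic 2, ketogenic 3, chow 1 or chow 2 (adjusted p = 0.0721 to 0.0985) and Sc5d without chow 1 or chow 3 (adjusted p = 0.0637 to 0.0735).

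Calls of the next lists were lost with single libraries left out. Of 22 genes of branched-chain amino acid oxidation 5 rose and none fell, and without ketogenic replicate 1, 5 rose and 4 fell. Those that rose with all libraries included Aldh6a1 (953, 1222 and 1121 against 701, 777 and 707 CPM; log2 fold change 0.59, adjusted p = 0.0185), Bckdha, Ivd and Hibadh. None of the 5 calls was kept without ketogenic replicate 2, ketogenic replicate 3, chow 1 or chow 3, and Aldh6a1 lost its call without ketogenic 2, ketogenic 3, chow 1 or chow 3 (adjusted p = 0.0614 to 0.103). Of 32 antioxidant and NRF2 target genes 4 rose, Aldh1a1, Gpx1, Cat and Sqstm1, with log2 fold changes of 1.36, 0.51, 0.51 and 0.47, and 0 of these calls was kept in 5 of the 6 fits with a library left out. With ketogenic replicate 1 left out, 8 of that list rose and 2 fell.

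Within the insulin and growth hormone axis, 2 of 21 genes rose and 1 fell, against 3.59% and 5.45% of all genes tested. Igf1, insulin-like growth factor 1, was at 30.8, 19.4 and 21.8 CPM on the ketogenic diet and 69.3, 46.1 and 67.8 CPM on chow (log2 fold change -1.35, SE 0.22, adjusted p = 0.0153), lower in every ketogenic library, with a call lost without ketogenic 3 or chow 1 (adjusted p = 0.0684 to 0.0716). Klf15, a fasting-responsive transcription factor, was at 110.1, 111 and 125 against 63.2, 89.9 and 69.5 CPM (log2 fold change 0.64, adjusted p = 0.02), and the insulin receptor gene Insr at 223, 249 and 272 against 170.2, 204 and 187 CPM (log2 fold change 0.41, adjusted p = 0.0428). Their calls were lost without ketogenic 2, ketogenic 3, chow 1 or chow 3 (adjusted p = 0.0616 to 0.0955) and without ketogenic 2, ketogenic 3, chow 1 or chow 3 (adjusted p = 0.128 to 0.181). In the axis 6 genes rose and 4 fell without ketogenic replicate 1, against 11.3% and 11.8% of all genes tested. Of 23 genes of the integrated stress response and serine synthesis none passed with all libraries, and 4 rose and 2 fell without ketogenic replicate 1. Of 20 unfolded protein response genes 2 rose and 3 fell, the same numbers as without it. Herpud1, of endoplasmic reticulum degradation, was at 286, 250 and 305 against 152, 200.2 and 174 CPM (log2 fold change 0.68, adjusted p = 0.0109), a call lost without chow 1 or chow 3 (adjusted p = 0.0577 to 0.0606). No chow library overlapped the ketogenic ones for these genes.

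**Figure D4:**
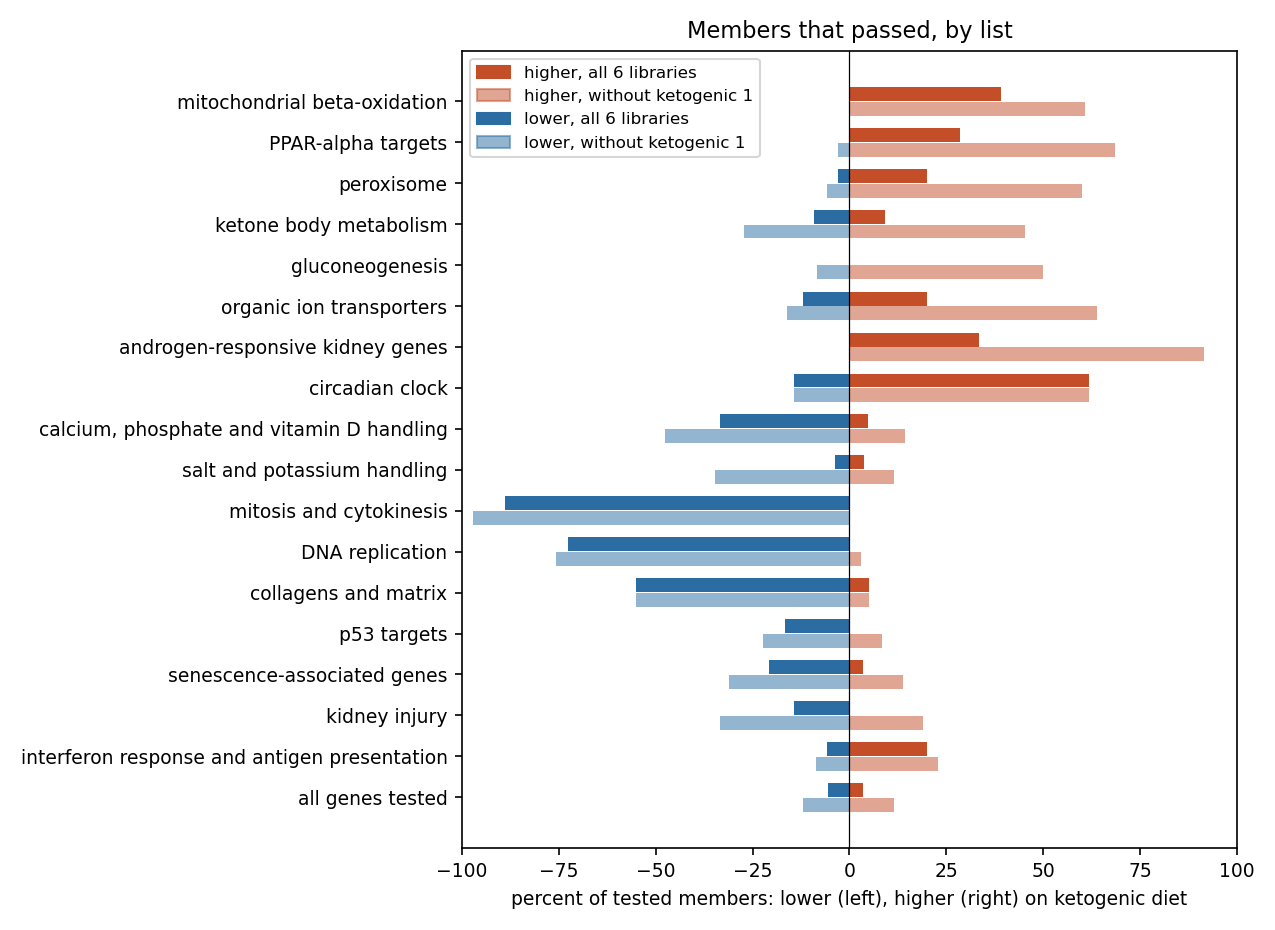
Percent of the tested members of each list that passed, fallen to the left and risen to the right (y axis: list; dark bars: all 6 libraries; pale bars: without ketogenic replicate 1; last row: all genes tested). Mitosis and replication bars point only left with all 6 libraries. Pale bars are longer than dark ones for all genes tested, and also for the fat oxidation, peroxisome and androgen-responsive lists.

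The diet effect in kidney was compared with that in heart and in liver by contrasts in 1 edgeR model over 15695 genes. It differed from that in heart for 392 genes (2.5%) and from that in liver for 3417 (21.8%), and 104 genes (0.663%) passed both with the same sign. Of these, 43 had also passed in kidney in the same direction, 32 higher and 11 lower. Azgp1 had a log2 fold change of 4.34 in kidney, 0.54 in heart and 0.47 in liver. Pzp had 3.44, 0.18 and -0.29, and Cyp4b1 had 2.50, 0.88 and 0.18. Cadm1, a cell adhesion molecule, was at 28.9, 37.9 and 40.3 CPM on the ketogenic diet and 14.3, 11.6 and 12.5 CPM on chow in kidney (log2 fold change 1.48, adjusted p = 0.00126), with log2 fold changes of -0.21 in heart and 0.02 in liver. The rises in these 4 genes were thus larger in kidney than in either other organ by the test of the difference.

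Cyp27a1, the sterol 27-hydroxylase, was at 44.1, 48.2 and 53.9 CPM on the ketogenic diet and 20.7, 24 and 20.5 CPM on chow in kidney (log2 fold change 1.16, adjusted p = 0.000916), against log2 fold changes of 0.42 in heart and -0.26 in liver. Among the lower genes, Slc8a1 had a log2 fold change of -0.85 in kidney, 0.14 in heart and 0.15 in liver. Plod2, a collagen lysyl hydroxylase, was at 42.7, 43.6 and 39.4 against 74, 70.3 and 63.3 CPM in kidney (log2 fold change -0.72, adjusted p = 0.00217), with 0.29 in heart and 0.24 in liver. Impa2, an inositol monophosphatase, was at 10.6, 8.63 and 10.4 against 16.3, 17.9 and 17 CPM in kidney (log2 fold change -0.78, adjusted p = 0.00535), with 1.33 in heart and -0.08 in liver. Kidney stood below the other organs in each of these 3. Ketogenic replicates 1 and 2 of heart, and those of liver, differed little more than sampling noise, with a median chi-square per gene of 0.669 in heart and 0.708 in liver. Sampling noise alone gives 0.455, and other pairs of replicates gave 1.28 to 4.77. Each such pair was counted as 1 sample, so those groups had 2 samples. With the pairs kept as separate samples, the kidney effect differed from that in heart for 842 genes and from that in liver for 4532.

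**Figure D5:**
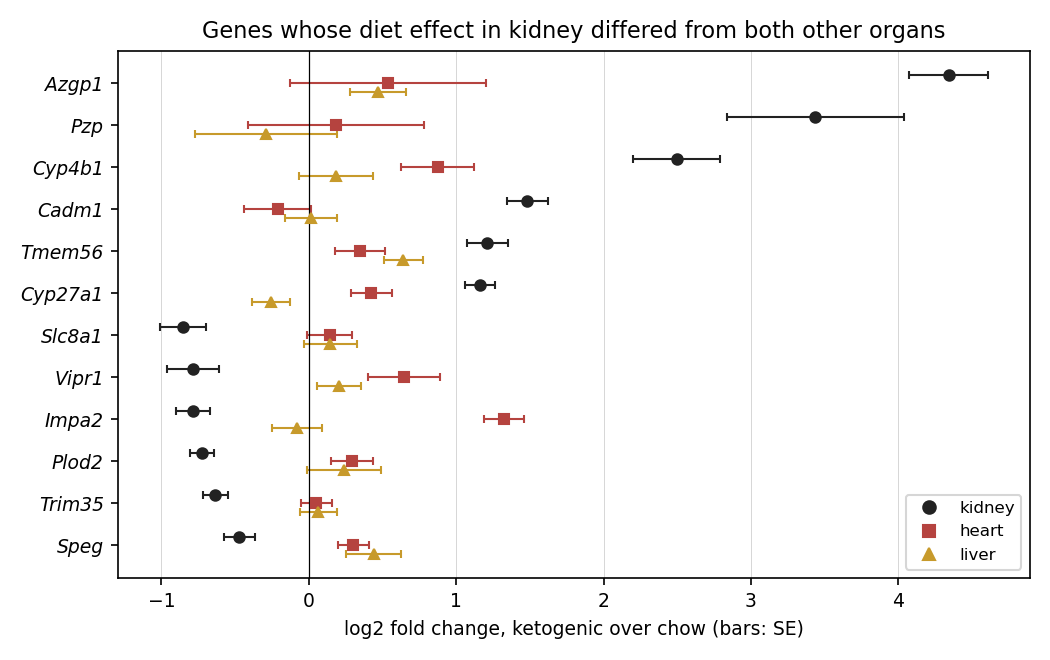
Log2 fold change, ketogenic over chow, of the 12 named genes whose diet effect in kidney differed from both other organs (x axis; bars: SE of the fold change; y axis: genes; symbols: organs). The kidney values lie to the right of the heart and liver values for the upper 6 genes and to the left for the lower 6.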

How the data were processed

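RNA of kidney tissue was sequenced with a stranded mRNA kit, per the labels' protocols, and 3 libraries per diet entered each group by their titles; heart and liver libraries entered only the comparison between organs. The authors deposited estimated counts per gene, with fractional values where a read mapped to several genes, and per the submitters' processing notes they used bcl2fastq, HISAT2 2.1.0, SAMtools and featureCounts 1.5.0 on mm9; per the file headers reads were counted by strand (setting 2) with a minimum mapping quality of 2. Genes with a fractional value held 46.2% to 51.4% of the counts of a kidney library; counts were rounded, which moved no library total by more than 0.00087%. Total counts were 16173996 to 19923905, so a gene at 1 CPM rests on 16 to 20 counts.

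Genes were filtered with filterByExpr, scaled by TMM and tested with the quasi-likelihood test of edgeR 4.0.16 (limma 3.58.1, R 4.3.3), 2-sided, with Benjamini-Hochberg adjustment over all genes tested. Positions of genes are mm9 as deposited, and promoters are GRCm38.p6 from RefSeq. Alternatives were DESeq2 1.42.0 (after rounding), limma-voom, other scalings and filters, a 1.5-fold test, a replicate block, all 18 libraries in 1 model and each library left out. The scripts were tested on simulated data.

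The 46 gene lists (30 functions, 16 sets of markers) were chosen with earlier results of these data known. Genes named are 20 fixed genes, the 12 largest rises and 12 largest falls that passed without overlap at a mean log2 CPM of at least 2, up to 4 members of each list by p-value with those against its direction, the 10 smallest p without ketogenic replicate 1 among genes not called, 6 in each direction that differed from both other organs, and markers of lists that varied over 3-fold; predicted genes were left out; 31 more were chosen after their values were seen. Not every gene so chosen is reported here.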

Additional observations from a re-analysis of the deposited data

Results flagged for a closer look

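The diet effect of 12 named genes in kidney differed from that in heart and from that in liver. Contrasts in 1 edgeR model gave Benjamini-Hochberg adjusted p under 0.05 for both. These genes were picked by kidney fold change, 6 in each direction, from 43 that also passed in kidney in the same direction. Genes at low levels and predicted genes were left out. On the log2 scale, the kidney effect minus the heart effect was 3.83 for Azgp1, 3.27 for Pzp, 1.64 for Cyp4b1, 1.71 for Cadm1, 0.88 for Tmem56 and 0.76 for Cyp27a1. It was -0.98 for Slc8a1, -1.41 for Vipr1, -2.09 for Impa2, -1.0 for Plod2, -0.67 for Trim35 and -0.75 for Speg. Impa2 had a kidney log2 fold change of -0.78 and a heart log2 fold change of 1.33. Pzp, Slc8a1, Vipr1 and Speg lost their kidney calls with some libraries left out. The libraries of the 3 organs carry no label that ties them to the same mice.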

How the results depend on the processing

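The direction of all 273 genes chosen for naming and tested was kept wherever either fit called them, and 92 of the 158 called lost the call without some library. With 1 kidney library left out, 412 (without chow 1) to 3402 (without ketogenic replicate 1) genes passed, 141 to 1669 higher and 271 to 1733 lower. DESeq2 called 871 higher genes and the model of all 18 libraries 850. Testing against a 1.5-fold change left 187 genes, 41 higher and 146 lower. With the other scalings and filters 1315 to 1522 genes passed, and limma-voom called 1282.

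With the replicate block 810 genes passed, 323 higher and 487 lower. Deviations of same-numbered libraries correlated at -0.141, 0.0477 and -0.123, and not every library correlated best with its own number. The deviations were taken from means of 3 libraries and constrain each other, so they cannot show whether the numbers pair the mice. The kidney-heart difference passed for 777 genes with the block and for 842 with all 18 libraries kept separate. With samples left out it passed for 96 (without heart ketogenic replicates 1 and 2, counted as 1) to 674 genes (without ketogenic replicate 1 of kidney), and for 131 without heart ketogenic replicate 3. The kidney-liver difference passed for 1651 genes without liver ketogenic replicates 1 and 2. The causes were not tested. Genes under about 1 CPM rest on fewer than 20 counts per library, and small changes in them were not detectable at this depth.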
